A study of Mus musculus with 4 samples.

Results

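Potassium channel genes were taken as the genes whose symbol begins with Kcn, leaving out Kcnq1ot1, a non-coding RNA that overlaps Kcnq1. The rule gave 98 of the 32285 genes in the count tables, 94 of them protein-coding and 4 antisense transcripts. They were followed through single-nucleus RNA sequencing of a dissected piece of mouse hindbrain that contains the area postrema and the nucleus tractus solitarius, brainstem sites that receive signals on feeding and gut state. Control mice carried the label WT and, per the study's methods, held the hM3DGq fl/- and hM4DGi fl/- alleles without a recombinase. AgRP-Gq;POMC-Gi mice held the same alleles together with AgRP-IRES-Cre+/- and POMC-Dre+/-, which place an activating Gq-coupled designer receptor in AgRP neurons and an inhibitory Gi-coupled one in POMC neurons. Both groups were adult animals of 12 to 20 weeks and of both sexes, and each mouse received clozapine-N-oxide (CNO) at 3 mg/kg intraperitoneally and was killed 1 h later without food. Receptor expression was limited to cells that express, or expressed during development, the driver gene. Receptor expression in the hindbrain nuclei, and their connection to the manipulated neurons, were not measured here.

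There were 2 libraries per group, here called control 1 and 2 and DREADD 1 and 2 (AgRP-Gq;POMC-Gi). The design text states that samples of a condition were pooled with 2 mice per group, and whether a library is a single mouse is not given, so the spread between libraries may be partly technical. The libraries held 9723 to 10051 nuclei that passed the authors' quality control, in 14 annotated cell types, and any pair of libraries shared 19 to 36 cell barcodes. Neurons supplied 12539 nuclei in 134 clusters, with 26860073 to 35583732 unique molecular identifiers (UMIs) per library, which is the firmest part of the data. The annotated types carried their markers, but choroid plexus comprised 436 and 329 nuclei in control 2 and DREADD 2 and 2 and 6 nuclei in the other libraries, and its transcript Ttr was present in neurons at 1003 and 580 CPM (counts scaled to a library sum of 1000000) in those libraries against 1.49 and 7.53 CPM in the others. Levels below are CPM of the summed nuclei of a library, given as the mean ± SD over the 4 libraries (n = 4) unless stated, and the share of nuclei with a UMI carries an exact 95% binomial interval that covers counting error only.

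Potassium channels let potassium leave or enter the cell and so set the resting potential, the repolarisation of each action potential and the rate of firing. Voltage-gated members open on depolarisation, calcium- or sodium-activated members open after activity, inward rectifiers and tandem-pore members carry background current, and auxiliary subunits change the trafficking and gating of pore subunits. Glia use inward rectifiers to take up potassium, and vascular mural cells use ATP-sensitive channels to couple metabolism to vessel tone. By these roles the 98 genes comprised 30 voltage-gated, 16 auxiliary, 15 inward rectifier, 14 tandem-pore, 10 silent (modulatory) and 8 calcium- or sodium-activated genes and 5 others. Nuclear RNA holds unspliced transcripts, and whether intronic reads were counted is not given in the sources used here, so a long gene can have a high CPM for its length alone, and single genes are set against each other per kilobase of gene. The median length of the protein-coding members was 30.8 kb against 17.3 kb for all protein-coding genes, and 24.5% of members but 11.4% of all genes spanned over 100 kb.

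Neurons carried the most potassium channel RNA, and oligodendrocyte precursor cells (OPC) came next. The summed level of the 98 genes was 13285 ± 82 CPM in neurons, 10538 ± 35 CPM in OPC and 8237 ± 378 CPM in astrocytes. It was 4184 ± 224 CPM in ependymal cells, 3485 ± 145 CPM in oligodendrocytes and 1563 ± 230 CPM in endothelial cells, the lowest of the 10 types with at least 20 nuclei in each library. The ranges of neurons, OPC and astrocytes did not overlap, whereas those of mural cells (2178 ± 287 CPM) and Tmem119.Immune cells (2046 ± 101 CPM) did. The first 3 types kept this order at equal depth: after thinning each nucleus to 800 UMIs a neuron still held 5.58 ± 0.10 different Kcn genes, an OPC 4.79 ± 0.03, an astrocyte 3.59 ± 0.12 and an endothelial cell 0.84 ± 0.12.

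**Figure D1:**
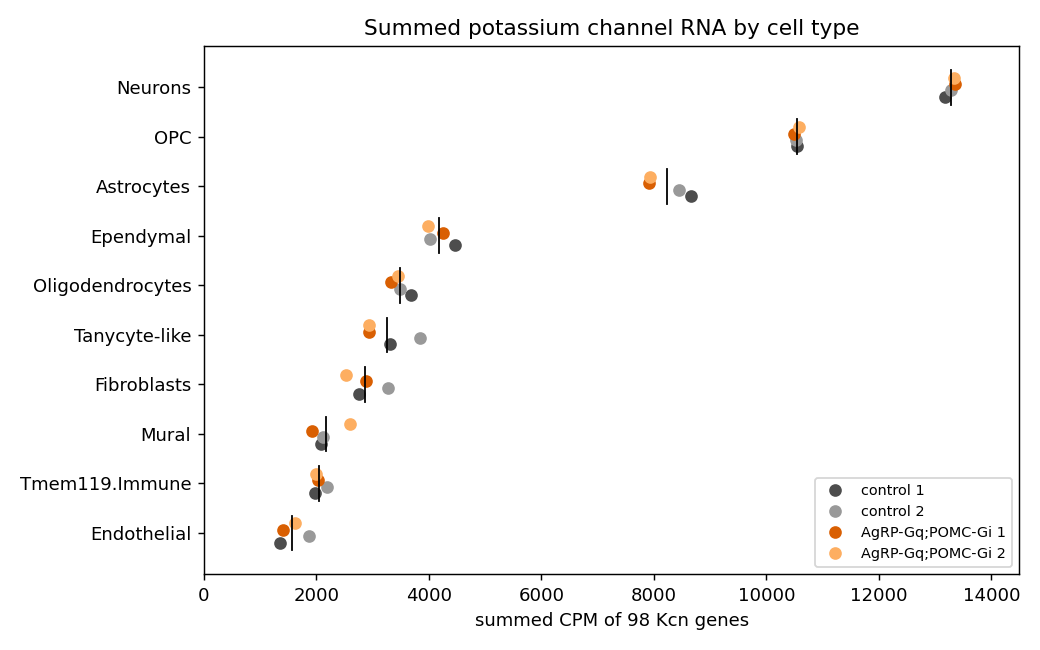
Summed CPM of the 98 Kcn genes on a linear axis, with 1 point per library and a vertical line at the mean of the 4 libraries, for the cell types with at least 20 nuclei in each library. Neurons, OPC and astrocytes lie apart from each other and above all other types, with 13285, 10538 and 8237 CPM.

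Sums in CPM are shares of all UMIs and are not corrected for length. Within neurons the voltage-gated genes summed to 6039 ± 106 CPM and the auxiliary genes to 4896 ± 151 CPM. Calcium- or sodium-activated genes summed to 1421 ± 26 CPM, inward rectifiers at 595 ± 20 CPM, tandem-pore genes at 282 ± 11 CPM and silent genes at 41.5 ± 4.3 CPM. A pair of genes made up 46.5% of the family's CPM in neurons: Kcnip4, a calcium-binding auxiliary subunit, and Kcnd2, the pore subunit of the A-type current that Kcnip4 attaches to. Both are very long. Per kilobase of gene, Kcna1, a low-threshold delayed rectifier of axons, stood at 21.6 CPM per kb, Kcna2 at 4.50, Kcnd2 at 3.97 and Kcnip4 at 3.64 CPM per kb. A UMI was found in over 50% of neurons for 15 members, led by Kcnma1, the large-conductance calcium-activated channel, in 93.3% and Kcnd2 in 93.1% of neurons, while 11 members had fewer than 50 UMIs in all nuclei.

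Cell types were defined by the authors from the same expression values, so differences between types are described without a test. Of the 98 genes, 61 had at least 50 UMIs in the type where their mean level was highest. The lowest library of that type lay above the highest library of the next type for 33 of these 61 genes (54.1%), against 31.5% of the 10575 genes of all kinds that met the same count. Neurons were the highest type for the largest number of the 61 (21), followed by OPC (10), astrocytes (6), oligodendrocytes (5) and Tmem119.Immune cells (4). Among all genes 19.5% were highest in neurons and 4.36% in OPC. The median ratio of the highest to the next type was 1.84 for the members and 1.44 for all genes.

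Genes highest in neurons included pore subunits and regulators of firing. Kcnh7, an ether-a-go-go related channel, measured 744 and 665 CPM in the control libraries and 721 and 715 CPM in the DREADD libraries, while the next type, OPC, reached 72.2 ± 9.5 CPM, a ratio of 9.86. A UMI of Kcnh7 was found in 78.3% of neurons (77.6 to 79.0) and 4.56% of oligodendrocytes (4.24 to 4.88). Kcnip4 stood at 3975, 4274, 4264 and 3997 CPM in neurons, 4.40 times the 938 ± 216 CPM of ependymal cells. Both genes were apart from the next type in every library. The same held for Kcnmb2, the inactivating beta subunit of the large-conductance channel (172 ± 7 CPM), Kcnc1, a fast delayed rectifier (120 ± 6 CPM), Kcnb2 (696 ± 44 CPM), Kcnc2 (486 ± 35 CPM) and the G-protein-gated inward rectifier Kcnj6 (110 ± 1 CPM). Kcnk9, a tandem-pore leak channel (26.5 ± 1.4 CPM), Kcnj3, the partner of Kcnj6 in G-protein-gated channels (417 ± 20 CPM), and the silent subunit Kcng3 (4.19 ± 0.45 CPM) were also highest in neurons by their means, but some library of a small type reached into the neuronal range. The sodium-activated channel Kcnt1 was at similar levels in neurons (143 ± 12 CPM) and astrocytes (139 ± 28 CPM), with overlapping libraries. Kcnq5, a subunit of M-current channels, was higher in the 61 nuclei of the Ms4a4b.Immune type (715 ± 510 CPM) than in neurons (531 ± 29 CPM) only by its mean, with 1 library of that type at 0.

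OPC exceeded neurons for several voltage-gated genes. Kcnh8, an Elk-type channel, measured 372, 371, 523 and 477 CPM in OPC (control 1, control 2, DREADD 1, DREADD 2) and 67.4, 61.2, 56.8 and 104 CPM in neurons, a ratio of 6.02. Kcnd3 reached 334 ± 38 CPM in OPC and 128 ± 4 CPM in neurons, and Kcnip3, an auxiliary subunit of the same A-type complexes, 566 ± 143 CPM in OPC and 258 ± 17 CPM in astrocytes. Kcnh5 and Kcnip1 were also apart, at 202 ± 23 and 443 ± 87 CPM in OPC against 119 ± 11 and 234 ± 7 CPM in neurons. Kcnd2 was shared by OPC (4373 ± 146 CPM), astrocytes (3858 ± 213 CPM) and neurons (2049 ± 59 CPM), and was at 24.4 ± 1.0 CPM in oligodendrocytes. Precursors and mature oligodendrocytes thus differed widely in this A-type channel. Kcnma1 was close in OPC (803 ± 166 CPM) and neurons (710 ± 11 CPM), with overlapping libraries.

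Astrocytes were high in the channels of potassium uptake and in an SK channel. Kcnj10, the inward rectifier through which glia clear potassium, measured 311, 311, 281 and 316 CPM in astrocytes, 235 ± 40 CPM in tanycyte-like cells, 170 ± 22 CPM in oligodendrocytes and 5.13 ± 1.83 CPM in neurons. Its heteromeric partner Kcnj16 overlapped between ependymal cells (91.4 ± 19.7 CPM) and astrocytes (87.8 ± 10.6 CPM) and reached 1.32 ± 0.44 CPM in neurons. Kcnn2, a small-conductance calcium-activated channel, stood at 823 ± 30 CPM in astrocytes, above every library of the tanycyte-like cells (435 ± 177 CPM) and of neurons (398 ± 8 CPM). Its relative Kcnn3 was instead highest in ependymal cells at 219, 169, 317 and 309 CPM, against 71.5 ± 8.7 CPM in astrocytes and 31.1 ± 2.6 CPM in neurons. The tandem-pore channel Kcnk1 was highest in astrocytes at 170 ± 28 CPM. The silent subunit Kcng4 had its highest mean there too (11.6 ± 1.7 CPM), but its libraries overlapped those of tanycyte-like cells.

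Genes of Kv1-type channels were split between mature oligodendrocytes and neurons. Kcna4 (21.6 ± 1.25 CPM), Kcnab2 (27.3 to 36.3 CPM over the libraries) and Kcnab3 (17.5 ± 0.19 CPM) had their highest means in neurons, and Kcnab1, Kcna1 and Kcna6 in oligodendrocytes. The libraries of F13a1.Immune cells for Kcna4, and of Ms4a4b.Immune cells for Kcnab3, were not all below those of neurons. Kcnab1, a beta subunit that inactivates these channels, measured 1009, 739, 598 and 704 CPM in oligodendrocytes and 270 ± 25 CPM in neurons, with every library apart. Kcna1 reached 462 ± 32 CPM in oligodendrocytes against 129 ± 4 CPM in neurons, and Kcna6 115 ± 10 CPM, although in both cases a library of the 123-nucleus Oligodendrocytes/OPC type overlapped. Kcna2, which joins Kcna1 in axonal channels, had its highest mean in that small mixed type (91.3 ± 61.0 CPM), with 63.3 ± 9.5 CPM in neurons and 33.2 ± 3.3 CPM in oligodendrocytes. Kcnq3 was high in oligodendrocytes at 1107, 1188, 1175 and 1172 CPM, above astrocytes (709 ± 156 CPM), OPC (642 ± 57 CPM) and neurons (503 ± 45 CPM). Kcnk13, a tandem-pore channel best known from microglia, was higher in oligodendrocytes (358 ± 40 CPM) than in Tmem119.Immune cells (245 ± 19 CPM), and a UMI was found in 49.7% of oligodendrocytes (48.9 to 50.4), 33.1% of Tmem119.Immune cells (30.2 to 36.2) and 5.85% of neurons (5.45 to 6.28). The median depth was 2460, 1871 and 8704 UMIs in these types.

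Mural cells, the pericytes and smooth muscle of vessels, were high in both subunits of an ATP-sensitive channel. Kcnj8, its pore subunit in vessels, measured 506, 462, 609 and 467 CPM in mural cells, and the next type, fibroblasts, reached 12.7 ± 14.4 CPM, a ratio of 40.3. A UMI was found in 47.1% of mural nuclei (43.7 to 50.7) at a median depth of 1520.5 UMIs and in 0.494% of neurons (0.379 to 0.633) at a median of 8704 UMIs. Abcc9, the sulfonylurea receptor that completes the channel, stood at 1832 ± 149 CPM in mural cells and 48.9 ± 34.1 CPM in fibroblasts. The counterpart receptor of neurons and beta cells, Abcc8, was highest in neurons at 32.8 ± 1.3 CPM. Kcnj8 and Abcc9 lie on the same strand of chromosome 6, and the 250 bases before their RefSeq start sites (GRCm38.p6, minus strand, chr6:142571615-142571864 and chr6:142702275-142702524) are shown because these genes were high in the same cells.
Kcnj8: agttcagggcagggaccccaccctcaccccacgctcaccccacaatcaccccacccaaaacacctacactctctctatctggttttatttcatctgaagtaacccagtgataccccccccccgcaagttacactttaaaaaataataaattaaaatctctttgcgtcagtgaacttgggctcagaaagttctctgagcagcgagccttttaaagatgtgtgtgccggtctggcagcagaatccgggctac
Abcc9: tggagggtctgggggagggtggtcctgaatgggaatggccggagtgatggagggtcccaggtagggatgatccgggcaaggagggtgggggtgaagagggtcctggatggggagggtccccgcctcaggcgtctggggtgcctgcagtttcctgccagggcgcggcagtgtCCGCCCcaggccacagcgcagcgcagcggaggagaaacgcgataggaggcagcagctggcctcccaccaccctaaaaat
Capitals mark matches, on either strand, to the TATA box (TATAAA), the GC box (GGGCGG), the homeodomain motif TAATCC, the GATA motif GATAAG or the CArG box. Abcc9 held 1 match to GGGCGG, a motif present in 32.7% of the 32851 promoters of this length, and Kcnj8 held none of the 5. Neither window held a CArG box, which 1.47% of all promoters hold. The inward rectifier Kcnj12 also had its highest mean in mural cells (48.3 ± 13.3 CPM), with libraries that overlapped another type.

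Choroid plexus, the epithelium that makes cerebrospinal fluid, was sampled by control 2 and DREADD 2 only, so its values are given for those libraries. Kcne2, an auxiliary subunit, measured 259 and 284 CPM there, Kcnj13, an epithelial inward rectifier, 501 and 540 CPM, and Kcnh1, an ether-a-go-go channel, 313 and 423 CPM. A UMI of Kcne2 was found in 62.9% of choroid plexus nuclei (59.4 to 66.3) and in 0.431% of neurons (0.324 to 0.561). In neurons Kcne2 was at 0.30, 1.02, 0.14 and 0.40 CPM, and in oligodendrocytes at 3.18 and 2.26 CPM in the libraries with choroid plexus against 0.07 and 0 CPM in the others, the same libraries that carried Ttr outside this tissue. Kcnj13 behaved otherwise: it was at 25.9 ± 0.6 CPM in neurons in every library, whether or not choroid plexus was sampled. Kcnj13 lies inside Gigyf2 on the opposite strand (chr1:87386363-87394729, GRCm38). The strand setting of the authors' counting is not given in the sources used here, and whether reads of Gigyf2 entered the Kcnj13 count was not tested. The 250 bases before the start sites, shown because they belong to the genes that separated this epithelium, were at chr1:87394730-87394979 (minus strand) for Kcnj13 and at chr16:92292139-92292388 and chr16:92295366-92295615 (plus strand) for the alternative starts of Kcne2, with the same motifs in capitals.
Kcnj13: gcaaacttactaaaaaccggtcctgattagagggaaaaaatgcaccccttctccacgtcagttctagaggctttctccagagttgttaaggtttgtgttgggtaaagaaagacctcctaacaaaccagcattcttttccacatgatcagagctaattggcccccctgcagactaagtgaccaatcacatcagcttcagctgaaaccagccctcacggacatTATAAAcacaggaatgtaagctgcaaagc
Kcne2, upstream start: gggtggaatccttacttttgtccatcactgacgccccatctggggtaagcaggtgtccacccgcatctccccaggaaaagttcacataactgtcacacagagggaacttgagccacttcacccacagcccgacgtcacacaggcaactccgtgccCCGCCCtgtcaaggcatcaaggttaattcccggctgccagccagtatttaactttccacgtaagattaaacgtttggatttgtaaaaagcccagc
Kcne2, downstream start: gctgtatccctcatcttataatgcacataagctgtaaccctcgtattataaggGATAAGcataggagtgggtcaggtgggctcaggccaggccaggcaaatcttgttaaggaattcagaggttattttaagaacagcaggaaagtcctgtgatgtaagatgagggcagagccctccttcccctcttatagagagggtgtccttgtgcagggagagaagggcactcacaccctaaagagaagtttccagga
Kcnj13 held a TATAAA match, a motif found in 12.4% of all promoters and in 3 of the 96 member promoters (71 members had an entry). The upstream Kcne2 window held GGGCGG on the other strand and the downstream window GATAAG, present in 6.55% of all promoters.

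The remaining types had fewer nuclei and wider spreads. Fibroblasts were highest in Kcnk2, a mechanosensitive tandem-pore channel (455 ± 26 CPM, next OPC at 145 ± 10 CPM), and in the sodium-activated Kcnt2 (400 ± 67 CPM, next OPC at 150 ± 17 CPM), both with every library apart, and in Kcnk5 (25.6 ± 10.2 CPM) with overlap. Tmem119.Immune cells, the microglia-like type, were highest in the tandem-pore Kcnk6 (121, 101, 106 and 105 CPM, next F13a1.Immune cells at 38.7 ± 30.4 CPM), and with overlap in Kcnd1 (25.9 ± 4.5 CPM) and Kcnrg (347 ± 76 CPM). Kcnrg shares its locus with Dleu2, which limits its reading. Endothelial cells led only by the mean of Kcnq1, a cardiac and epithelial channel (112, 95.4, 17.5 and 52.5 CPM), a gene that overlaps Kcnq1ot1.

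**Figure D2:**
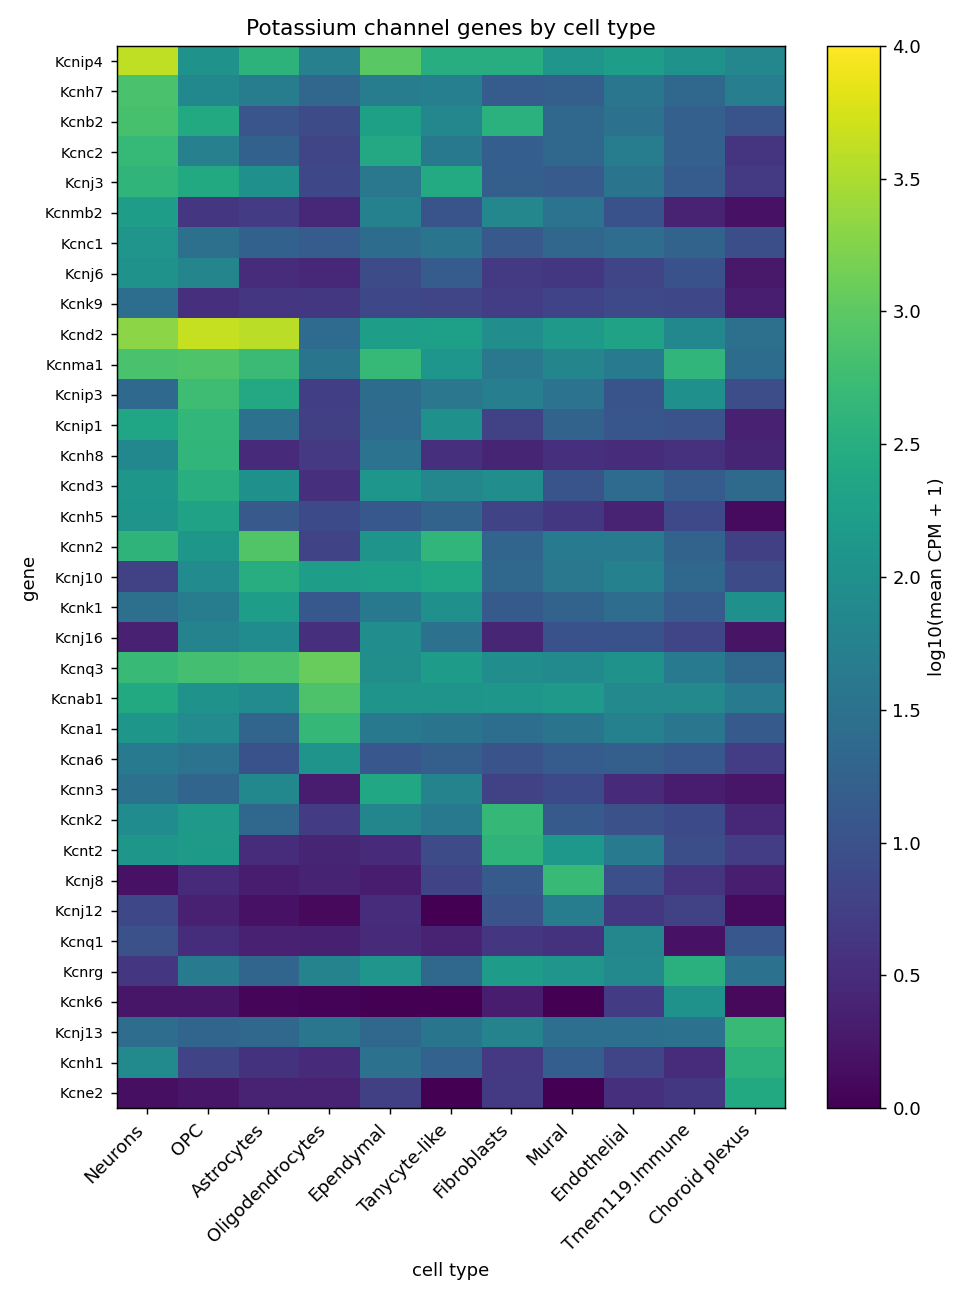
Mean CPM of 35 potassium channel genes (rows) in 11 cell types (columns), coloured as log10(mean CPM + 1); choroid plexus is the mean of control 2 and DREADD 2 and all others are means of 4 libraries. Blocks of genes stand out for OPC, oligodendrocytes, fibroblasts, mural cells and choroid plexus, with Kcnj8 in mural cells and Kcne2 in choroid plexus the most restricted.

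Of 12 genes for channel partners, 5 had their highest mean in neurons, as did 2 of 9 transport genes. Cntnap2, which clusters Kv1 channels beside the node of Ranvier, was highest in neurons (5740 ± 362 CPM), as were the A-type accessory subunits Dpp10 (2965 ± 237 CPM) and Dpp6 (1500 ± 55 CPM). Ank3, the axonal anchor of M-current channels, was higher in oligodendrocytes (1857 ± 192 CPM) than in neurons (1216 ± 12 CPM), and Lgi1, a secreted modulator of Kv1 channels, was highest in astrocytes (672 ± 47 CPM). Among the transport genes, the chloride exporter Slc12a5 (137 ± 11 CPM) was highest in neurons. The glial pump subunit Atp1b2 was highest in astrocytes (587 ± 47 CPM).

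The 134 neuronal clusters differed in these genes more than in most. Of the members, 48 had at least 1000 UMIs in neurons, and the median ratio of the highest to the median cluster was 4.83 for them, against 2.72 for the 11036 genes of that depth. A ratio over 10 was found for 8 members (16.7%) and for 6.71% of all such genes. Their highest levels fell in 33 clusters, and 23 members were above 0 in every cluster. Clusters held 15 to 227 nuclei (median 86.5), so the highest cluster is uncertain where it is small: 7 members had their highest mean in the 27-nucleus cluster 182:Samd3/Cnpy1. Some of the genes below also name their cluster in the authors' annotation, and their height there is therefore part of the definition.

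Kcnk13 and Kcnh8 were among the most unequal members. Kcnk13 reached 242 ± 75 CPM in the GABAergic cluster 126:Tfap2b/Slc39a8 against a median of 4.46 CPM, a ratio of 54.1. Kcnh8 stood at 978, 1076, 837 and 825 CPM in 146:Rxfp1/Ebf2 and at 763 CPM in 63:Ebf2/Th, both glutamatergic, against a median of 17.8 CPM. Kcnk13 had no UMI in 18 clusters and Kcnh8 in 17.

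Kcnmb2 was high in the GABAergic clusters 59:Kcnmb2/Sema3a (1757 ± 328 CPM) and 56:Kcnmb2/Sema3a (1513 CPM), 15.8 times the median of 111 CPM for the former. Kcnk12, a tandem-pore subunit, and Kcnd2 were both highest in 104:Gabra6/Fat2, whose name genes are granule cell markers, at 115 ± 73 and 9760 ± 735 CPM, and so were Kcnc1 (313 ± 25 CPM) and Kcnk1 (99.9 ± 13.8 CPM). Kcnip2 was highest in 49:Ccbe1/Tspan18 (66.4 ± 24.9 CPM), with 142:Cpne4/Trhde next at 57.7 CPM. Its maximum moved to cluster 133 without control 2 and to cluster 173 without DREADD 2. Kcnab1 reached 1844 ± 511 CPM in 97:Gfral/Sctr, the cluster with the receptor for GDF15, and Kcnip1 1212 ± 221 CPM in 80:Pdyn/Cpa6. Kcnh5 stood at 848, 795, 721 and 709 CPM in 129:Bnc2/Ebf2, 8.16 times the median. Kcnn3 was highest in 167:Tph2/Slc6a4, which carries serotonergic genes, at 207, 108, 174 and 320 CPM, and next in 159:Casr/Slc6a2 at 192 CPM. Kcna2 was highest in 157:Cnpy1/Adamts18 (476 ± 171 CPM). The Kcnq5 maximum in 159:Casr/Slc6a2 (3771 ± 3263 CPM) rested on control 1, which measured 8493 CPM there against 1251 to 3326 CPM in the other libraries.

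Other abundant members were spread over clusters. Kcnip4 had its maximum of 22981 ± 1265 CPM in 175:Lama1/Sntg2, with a median of 3567 CPM and a minimum of 105 CPM. Kcnn2 in 81:Gbx1/Fgf10 (771 ± 69 CPM) was 2.04 times, Kcnc1 2.70 times and Kcnma1 3.50 times the median cluster. Among the genes fixed for description, Kcnk9 was highest in 111:Cartpt/Postn (127 ± 19 CPM) and Kcnt1 in 148:Ccdc172/Ebf2 (468 ± 92 CPM). Kcnq3 was highest in 146:Rxfp1/Ebf2 (1879 ± 363 CPM) and Kcna1 in 74:Rbm20/Nox4 (369 ± 76 CPM). The mean of Kcnk2 was highest in 163:Adamts18/Col25a1 (457 ± 62 CPM), close to 437 CPM in 154:Olfr78/Calcr. Without control 1 or without control 2 the maximum of Kcnk2 moved to 111:Cartpt/Postn.

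**Figure D3:**
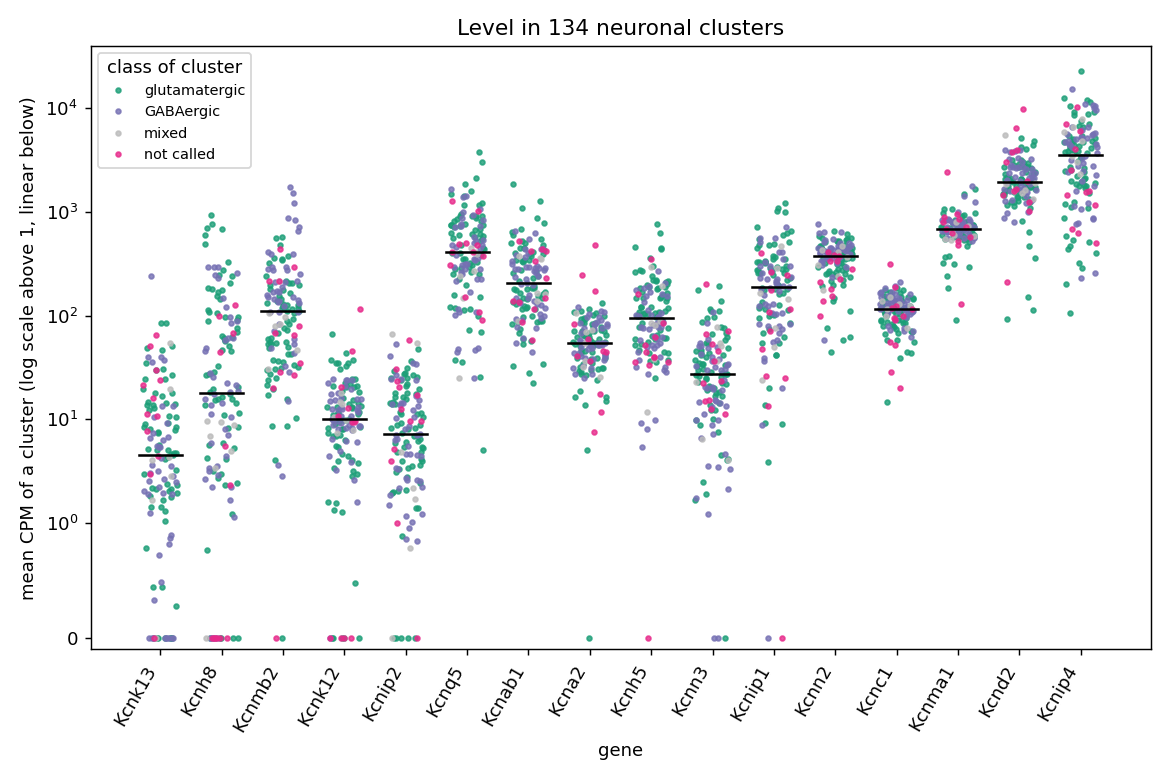
Mean CPM of each of 134 neuronal clusters (points, coloured by class) for 16 genes, on an axis that is logarithmic above 1 CPM and linear below; the bar is the median cluster. Kcnk13 and Kcnh8 have a few clusters far above a low median, whereas Kcnn2, Kcnc1 and Kcnma1 cluster tightly around theirs.

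Clusters were called glutamatergic or GABAergic where the mean level of Slc17a6 or Slc32a1 was at least 4 times that of the other and either gene had 20 or more UMIs, which gave 69 glutamatergic clusters (6201 nuclei) and 46 GABAergic clusters (4933 nuclei). Of the 67 members with at least 200 UMIs in both classes together, every glutamatergic library lay above every GABAergic library for 13 (19.4%) and below for 12 (17.9%). The same held for 6.9% and 8.88% of all 15161 genes of that depth. The median size of the log2 ratio was 0.22 for the members and 0.11 for all genes, and 42 members had overlapping libraries.

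Silent subunits, which open no channel alone and modify Kcnb partners, went in both directions between the classes. Kcng2 measured 10.2, 8.47, 6.04 and 13.3 CPM in glutamatergic and 3.29, 4.80, 2.86 and 3.97 CPM in GABAergic neurons, a log2 ratio of 1.35. Kcng1 had a log2 ratio of 2.14, which rested on control 1 (16.5 CPM against 2.85 to 5.29 CPM in the other glutamatergic libraries) and went to 1.18 with clusters weighted equally. Of its 552 UMIs in neurons, 251 came from the glutamatergic cluster 72:Ano2/Foxp2. Kcng3 had a log2 ratio of 0.96 with a wide spread (SD 0.87 over libraries). The leak channel Kcnk9 was even across libraries, at 31.0, 38.3, 34.9 and 35.2 CPM in glutamatergic and 17.0, 16.4, 15.5 and 16.4 CPM in GABAergic neurons, a log2 ratio of 1.09. Kcnh8 (0.84), Kcnn3 (0.73) and Kcnh7 (0.71) were also higher in every glutamatergic library, and the inward rectifier Kcnj2 (0.92) was higher within each library but with overlapping ranges.

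GABAergic neurons were higher in Kcnmb2, at 250, 267, 266 and 265 CPM against 110, 111, 128 and 123 CPM in glutamatergic neurons, a log2 ratio of glutamatergic to GABAergic level of -1.15. The tandem-pore Kcnk10 (-0.50), the beta subunit Kcnab3 (-0.50), Kcnh1 (-0.44), the A-type Kcna4 (-0.42) and Kcnrg (-0.65) were lower in every glutamatergic library. Among silent subunits Kcns3 (log2 ratio -0.31, 1773 UMIs), Kcnf1 (-2.15, 128 UMIs) and Kcns1 (-1.53, 75 UMIs) were also lower in every glutamatergic library, and these 3 genes were added after their values were seen. Kcns2 (-0.76) and Kcnk1 (-0.47) were lower within each library but with overlapping ranges. Kcng1, Kcng3, Kcnj2, Kcns2 and Kcnrg had under 500 UMIs each in the 2 classes together, so their ratios are less certain than those of the abundant members.

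Some members varied together from cluster to cluster. The level of Kcna1 and of Kcnab3, a beta subunit of Kv1 channels, correlated with Pearson r = 0.64 (Spearman rho 0.70) over the 134 clusters on the log2(CPM + 1) scale, as a description in which every cluster draws on the same 4 libraries. It was 0.59 in glutamatergic clusters, 0.87 in GABAergic clusters and 0.71 in the 111 clusters of at least 50 nuclei. Kcna1 also correlated with its partner Kcna2 (r = 0.60, rho 0.76), and Kcnt2 with Kcnc2 (r = 0.66). For Kcnt2 and Kcnc2 the Spearman rho was lower, at 0.44, and r was 0.67 in glutamatergic but 0.41 in GABAergic clusters. The SK channel Kcnn3, which slows firing, ran the other way, with r = -0.64 against Kcna1. Median UMIs per nucleus of a cluster moved with these genes, with r = 0.41 for Kcna1, 0.55 for Kcnab3 and -0.29 for Kcnn3, and the part of depth in the correlations was not tested. Over all 1128 pairs of the 48 members the median r was 0.04, and 1.6% of pairs exceeded 0.5, against 0.03 and 0.238% for all pairs of genes of that depth.

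**Figure D4:**
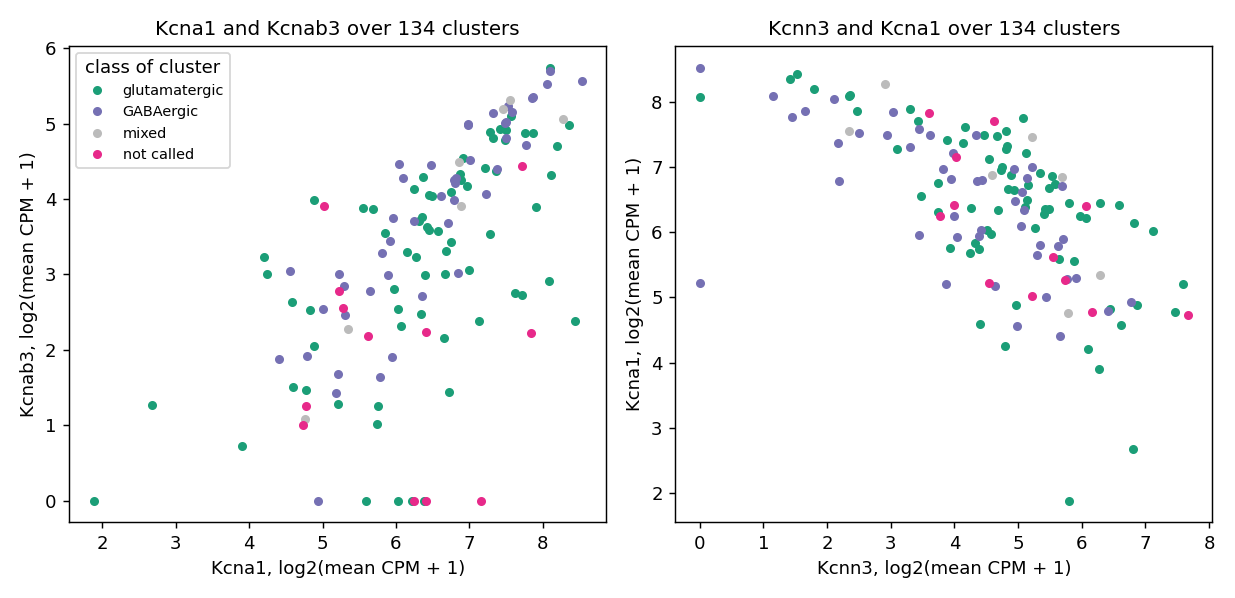
Log2(mean CPM + 1) in 134 neuronal clusters (points, coloured by class) for Kcna1 and Kcnab3 on the left and Kcnn3 and Kcna1 on the right. Clusters with more Kcna1 have more Kcnab3 (r = 0.64), and clusters with more Kcnn3 have less Kcna1 (r = -0.64).

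The comparison of groups asked whether 1 h after CNO chemogenetic drive of AgRP neurons, combined with silencing of POMC neurons, moved channel RNA in the hindbrain. In neurons as a whole no member passed the test: 0 of 50 members and 0 of 12115 genes (0%) had an adjusted p under 0.05 with edgeR's quasi-likelihood test and Benjamini-Hochberg adjustment. DESeq2 called 0 members and 10 genes. At an unadjusted p under 0.05 there were 10 members (20%) against 667 of all genes (5.51%). By role, this covered 6 of 23 voltage-gated, 2 of 5 calcium- or sodium-activated, 1 of 8 auxiliary and 1 of 7 tandem-pore genes tested, and 0 of the 5 inward rectifiers and 2 silent genes. The median log2 fold change of the members, DREADD over control, was 0.04, with 35 of 50 above 0, against 49.9% of all genes. With library totals in place of the trimmed mean of M-values (TMM) scaling, 22 of 50 members and 30.4% of all genes were above 0.

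Among the members with the smallest p were Kcnh5, Kcna2, Kcnt1, Kcnt2 and Kcnh6, each with an adjusted p of 0.81 in edgeR. The sodium-activated channels Kcnt1 and Kcnt2 measured 130 and 137 CPM and 114 and 125 CPM in the control libraries and 152 and 154 CPM and 147 and 136 CPM in the DREADD libraries, log2 fold changes of 0.26 ± 0.07 (SE) and 0.31 ± 0.09. Kcnh5 had 112 and 110 CPM in control and 118 and 134 CPM in DREADD libraries, and Kcnh6 8.82 and 9.26 against 10.7 and 11.8 CPM. Kcna2 was at 69.4 and 71.9 CPM against 50.7 and 61.4 CPM, a log2 fold change of -0.28 ± 0.08. These members were picked by their p from the same values, so the lack of overlap between their groups adds no support. The differences did not pass the adjusted threshold, and the share of all genes without overlap is not given here.

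The neuronal result depended on which DREADD library was kept. Without DREADD 1, Kcnh8 was called at a log2 fold change of 0.70 (edgeR adjusted p = 0.0202), where 0.239% of all genes passed, and it measured 67.4 and 61.2 CPM in controls and 56.8 and 104 CPM in DREADD libraries. Without DREADD 2 12 of 50 members (24%) and 2017 of 12115 genes (16.6%) passed, with Kcnt2 (0.42), Kcnab1 (0.37), Kcnt1 (0.31), Kcnh1 (0.30), Kcnc2 (0.27), Kcnq5 (0.24), Kcnd3 (0.21), Kcnh5 (0.20) and Kcnip4 (0.16) higher and Kcna6 (-0.41) and Kcna2 (-0.36) among those lower in log2 terms against the 2 controls, with edgeR adjusted p from 0.0091 to 0.0482. Each comparison leaves a single DREADD library, whose spread is assumed to equal that of the controls. The clusters highest in Kcnh8, 146:Rxfp1/Ebf2 and 63:Ebf2/Th, gave 43 and 25 nuclei in control and 32 and 97 nuclei in DREADD libraries. In all other neurons Kcnh8 was at 59.4 and 56.4 CPM in control and 52.7 and 90.7 CPM in DREADD libraries. DREADD 2 also stood apart in Xist, at 16.2 CPM in neurons against 319 to 541 CPM in the others. The sex of the mice in each library is not given, and the part of sex in the dependence on DREADD 2 was not tested. The oligodendrocyte transcript Mbp measured 73.2 and 61.9 CPM in neurons of the controls and 36.4 and 49.9 CPM in those of the DREADD libraries, and its part in these values was not tested.

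Outside neurons a single member was called. In astrocytes Kcnj3 was higher in the DREADD libraries, at 107 and 140 CPM against 71.9 and 83.2 CPM, a log2 fold change of 0.71 ± 0.13 (SE) with an edgeR adjusted p of 0.0305. It was 1 of 27 members tested there, where 0.626% of 8462 genes passed, and 33.3% of the members against 10.3% of all genes had an unadjusted p under 0.05. A UMI was found in 17.6% of astrocytes (16.5 to 18.8) against 81.2% of neurons (80.5 to 81.9). The neuronal transcripts Snap25 (89.4, 127, 71.7 and 108 CPM) and Syt1 (35.5, 35.1, 23.0 and 47.9 CPM) did not separate the groups in astrocytes. Neurons as a share of nuclei did, at 25.4% (control 1), 27.2% (control 2), 38.0% (DREADD 1) and 36.5% (DREADD 2). The part of neuronal RNA in the Kcnj3 call was not tested. The call was lost without control 1 (0.62) and without DREADD 2 (0.60). Over the 12 non-neuronal types tested, 0.102% of all gene tests passed and no further member did. No partner gene was called among the 7, 5, 3 and 5 of 12 that were tested in neurons, astrocytes, oligodendrocytes and OPC, and no transport gene among the 8, 8, 7 and 8 of 9 (edgeR). Of all genes 0% passed in oligodendrocytes and 0.0444% in OPC. At an unadjusted p under 0.05 there were 0 partner genes in each type and 2, 1, 1 and 1 transport genes, against 5.51%, 10.3%, 9.46% and 6.33% of all genes tested in these types.

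Of the clusters, 120 had 5 or more nuclei per library and were tested, and 14 of 5748 pairs of member and cluster passed within their cluster (0.244%), 8 higher (0.139%) and 6 lower (0.104%) in the DREADD libraries. Of all 1396489 pairs of gene and cluster 0.0385% passed, 0.0195% higher and 0.0189% lower. The calls lay in 12 clusters and involved 9 genes, and 108 tested clusters had none. In all 14 pairs the control and DREADD libraries did not overlap, which adds no support, because the pairs were picked by a test of these same values. Adjusted over all pairs together, 8 of the 14 passed, against 0.0279% of all pairs. At an unadjusted p under 0.05 there were 519 member pairs (9.03%), against 4.52% of all pairs. None of the 14 was called in every fit that left out 1 library, and DESeq2 called 1 of them. With replicate number as a block 8 of the 14 were called and 6 were not (Kcnip1 and Kcnip4 in cluster 140, Kcnb2 in 157, Kcnh7 in 153, Kcnmb2 in 135 and Kcnh8 in 111, edgeR adjusted p 0.598, 0.998, 1, 0.424, 0.0708 and 0.0773).

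Lower in the DREADD libraries were Kcnq5 in 42:Mylk/Mctp2, at 128 and 421 CPM in control and 32.7 and 27.9 CPM in DREADD libraries (log2 fold change -3.18 ± 0.33, edgeR adjusted p = 1.88e-08), and Kcnq5 in 63:Ebf2/Th, at 82.2 and 60.0 CPM against 0 and 8.44 CPM (adjusted p = 0.0461). The call in cluster 42 was lost when either control was left out, where the log2 fold change was -3.75 without control 1 and -2.04 without control 2. In cluster 63, with 33 UMIs in all, the call was lost without control 1 (-3.01) and without DREADD 2, where the remaining DREADD library was at 0. Kcnd2 in 181:Sntb1/Cpne4 measured 940 and 592 CPM against 185 and 143 CPM (-2.18 ± 0.37, edgeR adjusted p = 3.37e-05), and Kcnip1 in 140:Fgf10/Cpne4 241 and 260 CPM against 67.6 and 74.5 CPM (-1.73 ± 0.36, edgeR adjusted p = 0.00254). Kcnmb2 in 135:Zfp804b/Etl4 (257 and 132 CPM against 42.5 and 12.0 CPM) and Kcnh8 in 111:Cartpt/Postn (124 and 86.7 CPM against 10.8 and 20.9 CPM) completed the lower pairs. The call for Kcnd2 was lost without either DREADD library (-2.25 and -2.03), and that for Kcnip1 without any library but control 1 (-1.62 to -1.79). Kcnmb2 in cluster 135 was called only without DREADD 1 (-4.11), and went to -2.57 without control 1 and -2.44 without DREADD 2. Kcnh8 in cluster 111 had 28 UMIs and was called in no such fit (-2.11 to -2.95). All of these clusters were glutamatergic, and cluster 181 held only 30 nuclei.

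Higher in the DREADD libraries were genes of several roles. Kcnq5 in 116:Prph/Slc5a7, whose name gene Slc5a7 marks cholinergic neurons, rose from 188 and 225 CPM to 525 and 687 CPM (1.67 ± 0.35, edgeR adjusted p = 0.0127). It was the pair that DESeq2 also called. Its call was lost without control 1 (1.55) and without DREADD 2 (1.57). Kcnmb2 in 90:Pou4f1/Klhl1 rose from 139 and 61.2 to 271 and 394 CPM (1.74 ± 0.28, edgeR adjusted p = 0.0157), and Kcnh8 in the GABAergic 64:Ebf3/Pax2 from 14.6 and 33.2 to 97.8 and 97.6 CPM (2.00 ± 0.44, edgeR adjusted p = 0.0153). The former was lost without control 2 (1.32) and went to 2.53 without control 1, and the latter was called only without control 2 (2.71) and ranged from 1.60 to 2.08 in the other fits. Kcnj3 in 156:Ankfn1/Pou4f1 (121 and 178 to 427 and 348 CPM), Kcnh7 in 153:Lmo3/Cpne4 (279 and 389 to 698 and 1127 CPM) and Kcnip4 in 111:Cartpt/Postn (46.3 and 246 to 425 and 426 CPM) had edgeR adjusted p of 0.0172, 0.042 and 0.0028. The calls for Kcnj3 (1.24 to 1.75) and Kcnh7 (1.23 to 1.92) were lost whichever library was left out, and Kcnip4 in cluster 111 was called only without control 2 (3.41) and fell to 0.91 without control 1. A pair of calls followed DREADD 1 alone. Kcnip4 in 140:Fgf10/Cpne4 was at 3036 CPM there but at 736 CPM in DREADD 2 and 499 and 481 CPM in controls, and without DREADD 1 its log2 fold change went from 1.98 to 0.67. Kcnb2 in 157:Cnpy1/Adamts18 was at 1009 CPM in DREADD 1 and 224 CPM in DREADD 2, against 96.0 and 203 CPM, and went from 2.31 to 0.30 without DREADD 1 and to 3.17 without control 2, and was called only without DREADD 2 (3.04). Xist was itself called in 6 of the 12 clusters, and the oligodendrocyte transcript Mbp in 1, and their part in the calls was not tested.

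**Figure D5:**
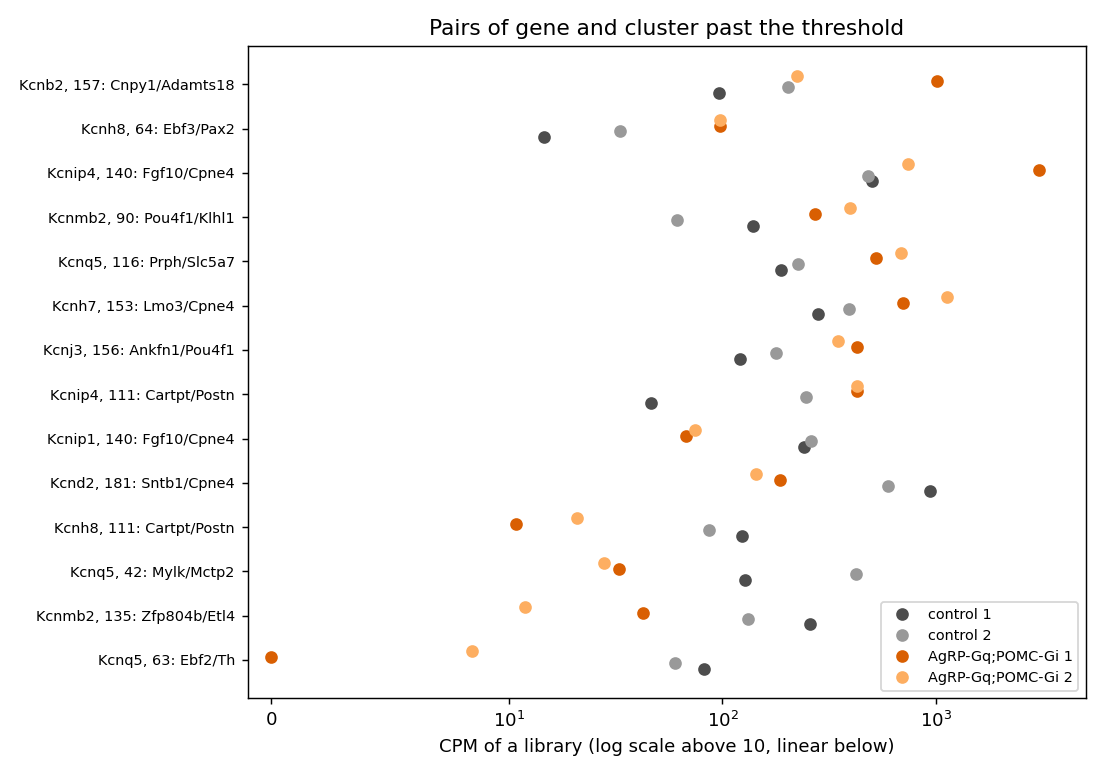
CPM of each library (points) for the 14 pairs of gene and neuronal cluster past the threshold, ordered by log2 fold change, on an axis that is logarithmic above 10 CPM and linear below. The pairs were picked by a test of these values, so the lack of overlap between control and DREADD points in each row adds no support. In Kcnip4 of cluster 140 and Kcnb2 of cluster 157 DREADD 1 lies far above DREADD 2.

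Whether the groups differed more in glutamatergic than in GABAergic neurons was tested as an interaction. No member and no gene passed (0 of 52 and 0 of 12354, 0%, edgeR quasi-likelihood test), and at an unadjusted p under 0.05 there were 6 members and 601 genes (4.86%). DESeq2 also called 0. The smallest p was that of Kcnh5, whose log2 fold change was 0.12 ± 0.08 in glutamatergic and 0.38 ± 0.07 in GABAergic neurons (edgeR adjusted p = 0.96).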

How the data were processed

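Single-nucleus RNA-seq libraries (10x Genomics 3′ chemistry, nuclei sorted for DRAQ5) were analysed from both groups (2 samples each). The deposited values were raw UMI counts per gene and nucleus, which the authors made with Cell Ranger 7.0.0 on GRCm38 (mm10). A percent of mitochondrial UMIs per nucleus, computed by the authors, was deposited as well. Filtering, clustering and annotation were done by the authors with Seurat 4.3.0. They detected doublets with scDblFinder and clustered on an embedding from scvi-tools. Their quality flag, clusters and cell type names were used as deposited. Kept nuclei were summed per library and cell type, cluster or class, and expressed as CPM. Sums were tested with edgeR 4.0.16 (quasi-likelihood, TMM, genes detected in 5% or more of nuclei, adjusted p under 0.05), and DESeq2 1.42.0 was an alternative, as were other filters, scalings, a replicate block and leaving out each library. The edgeR step was tested on simulated data. The authors' mixed model on nuclei (nebula) was not run. The interaction had library as a block. Gene coordinates came from GENCODE M21 and promoters from RefSeq. The members and lists were chosen with earlier results of these data known. Named were up to 3 members per cell type by ratio to the next type (50 UMIs), the 12 with the largest ratio of highest to median cluster (1000 neuronal UMIs, 30 in the cluster, all libraries), up to 8 per class with the same direction in all 4 libraries (200 UMIs), all called members, 6 with the smallest p in neurons, 5 pairs and 24 fixed genes. Some genes that these rules name are not reported here. The authors' own comparisons were not used.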

Additional observations from a re-analysis of the deposited data

Results flagged for a closer look

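For 3 genes the clusters with a called difference moved in opposite directions, higher in the DREADD libraries in one cluster and lower in another. The difference between clusters was not tested, and none of these calls held in every fit that left out 1 library. Kcnh8 had a log2 fold change of 2.00 in cluster 64:Ebf3/Pax2 and -2.47 in cluster 111:Cartpt/Postn, where it had 28 UMIs and was called in no such fit. Kcnmb2 had 1.74 in cluster 90:Pou4f1/Klhl1 and -3.24 in cluster 135:Zfp804b/Etl4, with -2.44 to -4.11 when a library was left out. Kcnq5 had 1.67 in cluster 116:Prph/Slc5a7, and -3.18 in 42:Mylk/Mctp2 and -3.31 in 63:Ebf2/Th, where it had 33 UMIs and a DREADD library at 0.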

How the results depend on the processing

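In neurons 0 members were called, with 1 under the replicate block and 0 to 12 when 1 library was left out. In the other cell types 1 pair of member and type was called, with 7 without the filter, 6 under the replicate block and 1 to 4 with a library left out. In single clusters 14 pairs were called, with 1 by DESeq2, 32 without the filter, 2 with edgeR's own filter, 23 under the replicate block (8 of the 14 among them), 20 to 35 with a library left out, 8 with adjustment over all pairs and 7 in the 77 clusters holding 10 or more nuclei per library. For the interaction 0 members were called, with 1 without the filter and 0 to 1 with a library left out. The counts of called members in this section are given without the share of all genes called under the same setting. They therefore show only how far the calls depend on the processing. The highest cluster of 48 members was the same for 18 with the share of nuclei thinned to 2000 UMIs and for 36 to 40 with a library left out, and the cause was not tested. The highest cell type of 61 members was the same for 53 to 60 under all alternatives run, and by the mean log-normalised value per nucleus it turned from ependymal cells to astrocytes for Kcnj16 (also without DREADD 1), from astrocytes to neurons for Kcng2, from Ms4a4b.Immune to neurons for Kcnq5 and from Tmem119.Immune to choroid plexus for Kcnk12. The direction between classes was the same for 58 to 67 of 67 members. No named difference between groups or classes changed sign, but 75 of 189 repeats of a named group difference lost the call. The libraries share replicate numbers, but the labels name no shared batch and there are only 2 pairs. The deviations of same-numbered libraries from their group means correlated at 0.11 in neurons, 0.27 in oligodendrocytes, 0.298 in astrocytes and 0.389 in OPC, and with 2 pairs the replicate block is given only as an alternative.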
